A study of Arabidopsis thaliana with 9 samples.

Results

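Seedlings of the Arabidopsis line pca31 were set against wild-type (WT) seedlings in 3 pairs of libraries that carried the same replicate number in their titles. These are 6 of the 9 libraries of the series. Of 20672 genes tested, 3253 were higher in pca31 in 3 of 3 pairs (15.7%) and 2949 were lower in 3 of 3 (14.3%), and the results below describe these 6202 genes by function. Their signs come from the contrast itself, so the counts of signs are descriptions without a test. The edgeR quasi-likelihood test with the replicate number as a block called 7 genes higher (0.0339%) and 2 lower (0.00967%) at an adjusted p under 0.05. At an unadjusted p under 0.05 it found 964 higher (4.66%) and 781 lower (3.78%).

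The line pca31 is described as a suppressor of atrzf1, a mutant of the gene AtRZF1, so its seedlings carry the atrzf1 background as well as the suppressor lesion. The wild type was the Col-0 accession, and 3 libraries of the atrzf1 parent entered the fit to estimate the spread. All were seedlings of 2 weeks on MS medium, and the labels name no dehydration or other treatment for them. The labels give neither the position of the 2 lesions, nor the number of plants in a library, nor whether libraries of a genotype came from separate cultures. What a p-value here weighs is thus the variation among these libraries, and that variation may be technical.

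AtRZF1 is a RING-type E3 ubiquitin ligase, an enzyme that marks other proteins for breakdown, and it is known as a negative regulator of the response to water deficit in Arabidopsis. Proline is an amino acid that plants build up when water is short. The series names rhamnogalacturonan lyase 1 (RGL1) as the suppressor. Enzymes of this class cut rhamnogalacturonan-I, a branched pectin of the primary cell wall.

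Transcripts were counted by sequencing of their 3' ends (QuantSeq). The 6 libraries held 22478803 to 33073605 counts, and 21417 to 22836 genes had at least 1 count. Values below are counts scaled by the TMM-adjusted library size (CPM), given for libraries 1, 2 and 3 in that order. Levels are compared within a gene only. Libraries of number 3 stood apart in both genotypes. The 24 root markers summed to 111, 81.1 and 2332 CPM in pca31 and to 205, 120 and 2536 CPM in WT. Between 10 and 14 of these markers, among them the root hair genes RHD6, RSL4 and EXPA7, had no count in libraries 1 and 2 of pca31 and WT, although the labels call all samples seedlings. Scaling by library totals in place of TMM moved the median log2 fold change over all genes from 0.04 to 0.24, and 6596 genes were then higher and 1036 lower in 3 of 3 pairs. With library totals, medians and sign counts of the lists below carry this shift, which is not particular to their members.

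AtRZF1, whose 3' count checks the genotype only as far as the lesion bears on it, was low in both mutant lines. AtRZF1 (AT3G56580, chromosome 3, 20961543 to 20963817, plus strand) had 1.16, 3.18 and 2.53 CPM in pca31, 2.3, 4.60 and 2.11 CPM in atrzf1, and 24.0, 30.98 and 25.4 CPM in WT. Every pca31 library lay below every WT library. The gene fell by 3.62 ± 0.27 on the log2 scale in pca31 (SE, edgeR, adjusted p = 1.94e-04), which is 12.3-fold lower. Without the replicate block the log2 fold change was -3.55 and the adjusted p by edgeR was 0.339. The neighbours AT3G56570 and AT3G56590 had log2 fold changes of 0.36 and 0.51 and were not called.

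The largest fall among the genes tested was that of AT4G21620, a gene for a glycine-rich protein on chromosome 4 (11491264 to 11492216, plus strand). It had 0.805, 1.21 and 1.26 CPM in pca31, 163, 477 and 344 CPM in atrzf1, and 168, 407 and 358 CPM in WT. The pca31 libraries lay far below all others, with no overlap. The log2 fold change against WT was -8.10 ± 0.23 (SE, edgeR, adjusted p = 5.69e-09), or 275-fold lower, and against atrzf1 it was -8.15 ± 0.23 (edgeR, adjusted p = 5.43e-09). It was the single gene called between pca31 and atrzf1 (0.00484% of genes tested). Values of the atrzf1 libraries show that AtRZF1 was low in both lines while AT4G21620 was low in the 3 pca31 libraries and in none of the other 6.

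No tested neighbour of AT4G21620 was called. LOL2, which ends 840 bases before it, had a log2 fold change of 0.03 ± 0.28, ENDO5 had -0.23 ± 0.83, and ENDO3, AT4G21640 and AT4G21650 had 1.64, 1.38 and 0.49. AT4G21630, whose 3' end lies 31 bases beyond that of AT4G21620 on the other strand, had 23 counts over all 9 libraries and was not tested. The 300 bases before the annotated start (chr4:11490964-11491263, TAIR10.1, plus strand, intergenic) are shown because AT4G21620 was lost and the gene before it, LOL2, was not, and capitals mark overlapping matches to TATAAA on both strands.

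AT4G21620 upstream: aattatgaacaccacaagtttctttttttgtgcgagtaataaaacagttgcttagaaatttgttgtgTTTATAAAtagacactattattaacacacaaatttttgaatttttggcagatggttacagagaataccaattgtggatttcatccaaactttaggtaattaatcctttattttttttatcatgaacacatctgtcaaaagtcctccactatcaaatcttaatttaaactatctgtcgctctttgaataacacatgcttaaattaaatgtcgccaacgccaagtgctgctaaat

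The matches to TATAAA start 233 and 231 bases before the end of this window. On either strand, 49.9% of 37897 windows of 300 bases before annotated gene starts hold TATAAA, so a match is common. Counts alone do not tell whether this stretch or the gene is altered in sequence in pca31.

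**Figure D1:**
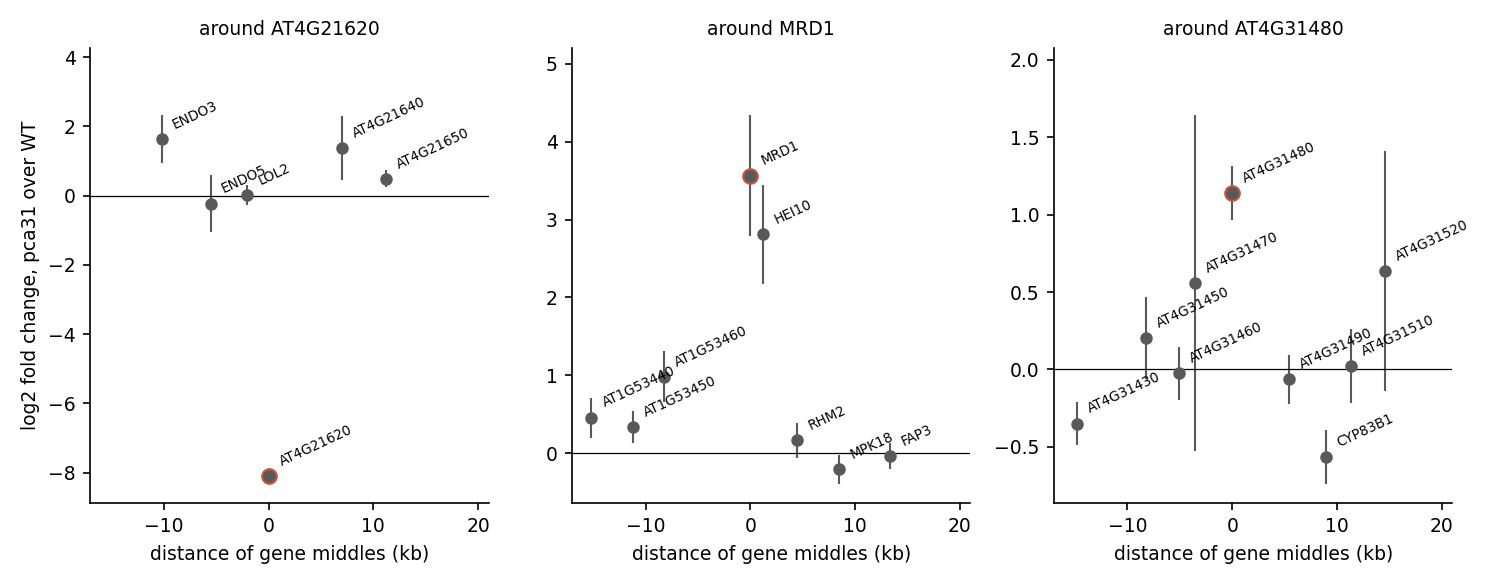
Log2 fold change of pca31 over WT (vertical axis, with its SE) for the tested genes within 12 kb of AT4G21620, MRD1 and AT4G31480 (red rings), by the distance between gene middles in kb (horizontal axis). The fall of AT4G21620 by 8.10 and the higher value of AT4G31480 (1.14) stand alone at their loci, while MRD1 (3.56) lies beside the overlapping HEI10 (2.81).

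Of the 7 genes called higher, 3 are pollen coat genes. GRP16 and GRP14 encode glycine-rich oleosin-type proteins of the pollen coat, and EXL4 encodes a lipase of the same coat. MAH1 (CYP96A15) is the mid-chain alkane hydroxylase of stem wax, XTH3 belongs to the xyloglucan endotransglucosylases, GGPS2 to the geranylgeranyl diphosphate synthases, and AT5G37940 is annotated as a zinc-binding dehydrogenase. All 7 were at 0 in library 3 of both genotypes, so their differences rest on pairs 1 and 2, and none is among the 6202 genes of the same sign in 3 of 3 pairs.

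GRP16 (AT5G07540, chromosome 5, 2385900 to 2387249, minus strand) had 18.4, 18.6 and 0 CPM in pca31, 11.9, 4.21 and 0 CPM in atrzf1, and no count in the 3 WT libraries. With 3 counts allowed in each WT library, its mean was at least 106-fold higher in pca31 (edgeR, adjusted p = 0.00263). MAH1 had 36.5, 58.8 and 0 CPM in pca31, against 0.320, 0.504 and 0 CPM in WT (log2 fold change 6.94 ± 0.75, edgeR, adjusted p = 0.0146). In libraries 1 and 2 the pca31 values of both genes lay far above those of WT, while the third pair held nothing to compare. MAH1 had 55, 12 and 0 CPM in atrzf1, so for both genes the parent also lay above WT in libraries 1 and 2.

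AT5G37940 had 47.4, 58.0 and 0 CPM in pca31, against 0.498, 3.11 and 0 CPM in WT (log2 fold change 4.91 ± 0.65, edgeR, adjusted p = 0.0188). GRP14 had 6.25, 9.10 and 0 CPM in pca31, against 0.178, 0.168 and 0 CPM in WT (5.37 ± 0.56, edgeR, adjusted p = 0.0134). EXL4 had 8.47, 9.13 and 0 CPM in pca31, against 0, 0.168 and 0 CPM in WT (6.69 ± 0.75, edgeR, adjusted p = 0.0153). The same order of libraries recurred in each of them. In the parent atrzf1, EXL4 had 7, 5 and 0 CPM. XTH3 (4.31, 6.19 and 0 CPM) and GGPS2 (4.47, 5.98 and 0 CPM) were detected in pca31 libraries 1 and 2 and had no count in WT, which makes them at least 30.0-fold and 29.8-fold higher (edgeR, adjusted p = 0.0153 and 0.0437). With no count in WT, XTH3, GGPS2 and GRP16 passed the expression filter through libraries of the mutant lines only. A rise was thus the only direction open to them. GRP14 and EXL4, below the minimum count of 10 in every WT library, likewise passed through mutant libraries only.

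These calls depend on the block and on single libraries. Without the block all 7 had an adjusted p by edgeR of 1.00. Leaving out 1 library ended no call of GRP16. Leaving out pca31 library 2 ended those of AT5G37940 (0.175), EXL4 (0.116), GRP14 (0.0905), XTH3 (0.130) and GGPS2 (0.193). Leaving out WT library 2 ended those of MAH1 (0.0973), GRP14 (0.0973), XTH3 (0.0651) and GGPS2 (0.130), and leaving out WT library 1 ended those of MAH1 (0.0648) and GGPS2 (0.138), all as adjusted p by edgeR. DESeq2 with the same block called GRP14 and MAH1 of the 7.

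**Figure D2:**
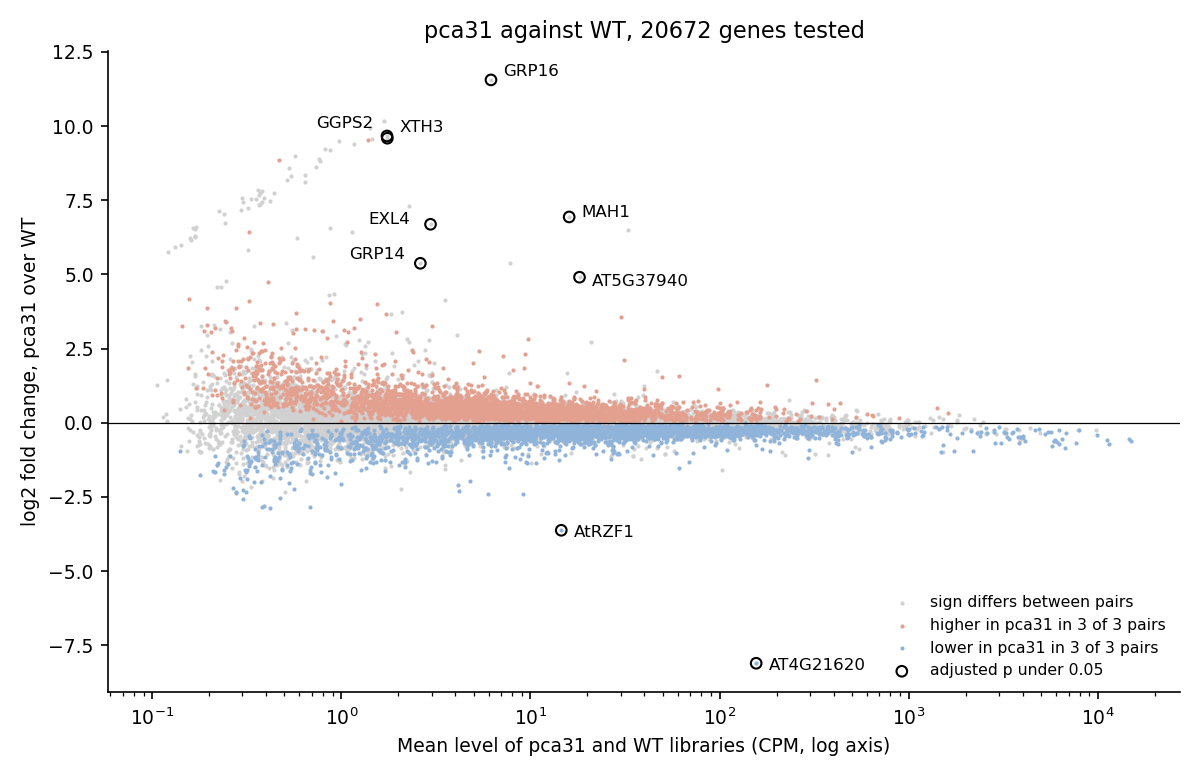
Log2 fold change of pca31 over WT (vertical axis) against the mean level over the 6 libraries in CPM (horizontal log axis) for 20672 genes tested. Rings mark the 9 called genes, of which AtRZF1 and AT4G21620 are lower. Red and blue points are genes of the same sign in 3 of 3 pairs, and grey points are genes whose sign differs between pairs or is 0 in one.

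Floral markers also differed between the genotypes in pairs 1 and 2. The 14 floral organ identity genes, the MADS-box factors that set the fate of floral organs with LFY, summed to 64.7, 81.5 and 24.7 CPM in pca31, to 82.2, 55.0 and 26.7 CPM in atrzf1, and to 17.99, 27.7 and 21.1 CPM in WT. The sums of pairs 1 and 2 differed clearly, and that of pair 3 differed little. Of 13 tested members, 6 were higher in 3 of 3 pairs and 0 lower, with a median log2 fold change of 1.86, and none was called by edgeR. The median paired difference was 2.41, 2.2 and 0.11 in pairs 1, 2 and 3.

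PI, which acts in petals and stamens, had 15.2, 18.24 and 3.46 CPM in pca31, against 1.67, 2.01 and 2.52 CPM in WT (log2 fold change 2.24 ± 0.53, edgeR, adjusted p = 0.295). SEP3, a partner factor in all floral organs, had 15.8, 13.7 and 12.6 CPM in pca31, against 2.91, 1.64 and 9.08 CPM in WT (1.86 ± 0.45, edgeR, adjusted p = 0.307). Each pca31 library exceeded each WT library for both genes. In the parent atrzf1, SEP3 had 23.2, 7.36 and 13.4 CPM, with a log2 fold change of 1.77 against WT. SEP2 (log2 fold change 2.31) and FUL (1.11) were also higher in 3 of 3 pairs. DESeq2 called PI and SEP3.

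The 30 anther, tapetum and pollen coat genes summed to 214, 239 and 34.0 CPM in pca31, to 192, 107 and 34.7 CPM in atrzf1, and to 44.3, 45.3 and 38.4 CPM in WT, so the pca31 sum was above WT in pairs 1 and 2 and below it in pair 3. In library 3, 21 of the 30 genes had no count in pca31 and 20 had none in WT. In libraries 1 and 2, 3 and 3 genes had no count in pca31, against 15 and 6 in WT. Of 25 tested members 3 were called higher (GRP14, GRP16 and EXL4) and 5 were higher in 3 of 3 pairs, and the median log2 fold change was 2.07. The pollen wall genes LAP6 (0.72), LAP5 (0.84) and TKPR1 (0.25) were among those 5, and pca31 and WT libraries overlapped for LAP5 and TKPR1 but not for LAP6. The 6 tested genes from GRP14 to GRP20, a cluster on chromosome 5 chosen after its values were seen, had a median of 5.37. In libraries 1 and 2 the cluster summed to 146 and 165 CPM in pca31, 106 and 64 CPM in atrzf1, and 1 and 5 CPM in WT. Its sum was thus far above WT in the parent too. In library 3 it was near 0 in every genotype. GRP17 had 95.2, 98.4 and 0 CPM in pca31, against 0, 2.22 and 0 CPM in WT (log2 fold change 6.497, edgeR, adjusted p = 0.0848).

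In RNA of mixed tissue, a difference in the number of cells of a type and one in RNA per cell cannot be told apart. The floral marker sums also differed between replicate numbers within WT and within pca31, and their part in the called genes was not tested.

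Of 19 tested cuticular wax genes, 7 were higher and 1 lower in 3 of 3 pairs, with a median of 0.23, and MAH1 was called. CER4, a fatty acyl reductase that makes primary alcohols, had 10.8, 12.8 and 1.23 CPM in pca31, against 2.24, 1.47 and 1.101 CPM in WT (log2 fold change 2.01 ± 0.64). WSD1, a wax ester synthase, had 4.19, 6.68 and 0.698 CPM in pca31, against 1.53, 1.01 and 0 CPM in WT (2.46 ± 0.55). CER1, which acts in alkane formation, and the acyl-CoA synthetase LACS1 had 0.75 ± 0.22 and 0.72 ± 0.18. In the parent atrzf1, CER1 had a log2 fold change of 0.90 against WT. The wax list summed to 1544, 1721 and 1484 CPM in pca31, 1587, 1809 and 1505 CPM in atrzf1, and 1316, 1629 and 1361 CPM in WT. For LACS1 all pca31 libraries (28.9 to 38.4 CPM) lay above all WT libraries (15.5 to 21.99 CPM), whereas for CER4 and CER1 the third pair differed least.

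**Figure D3:**
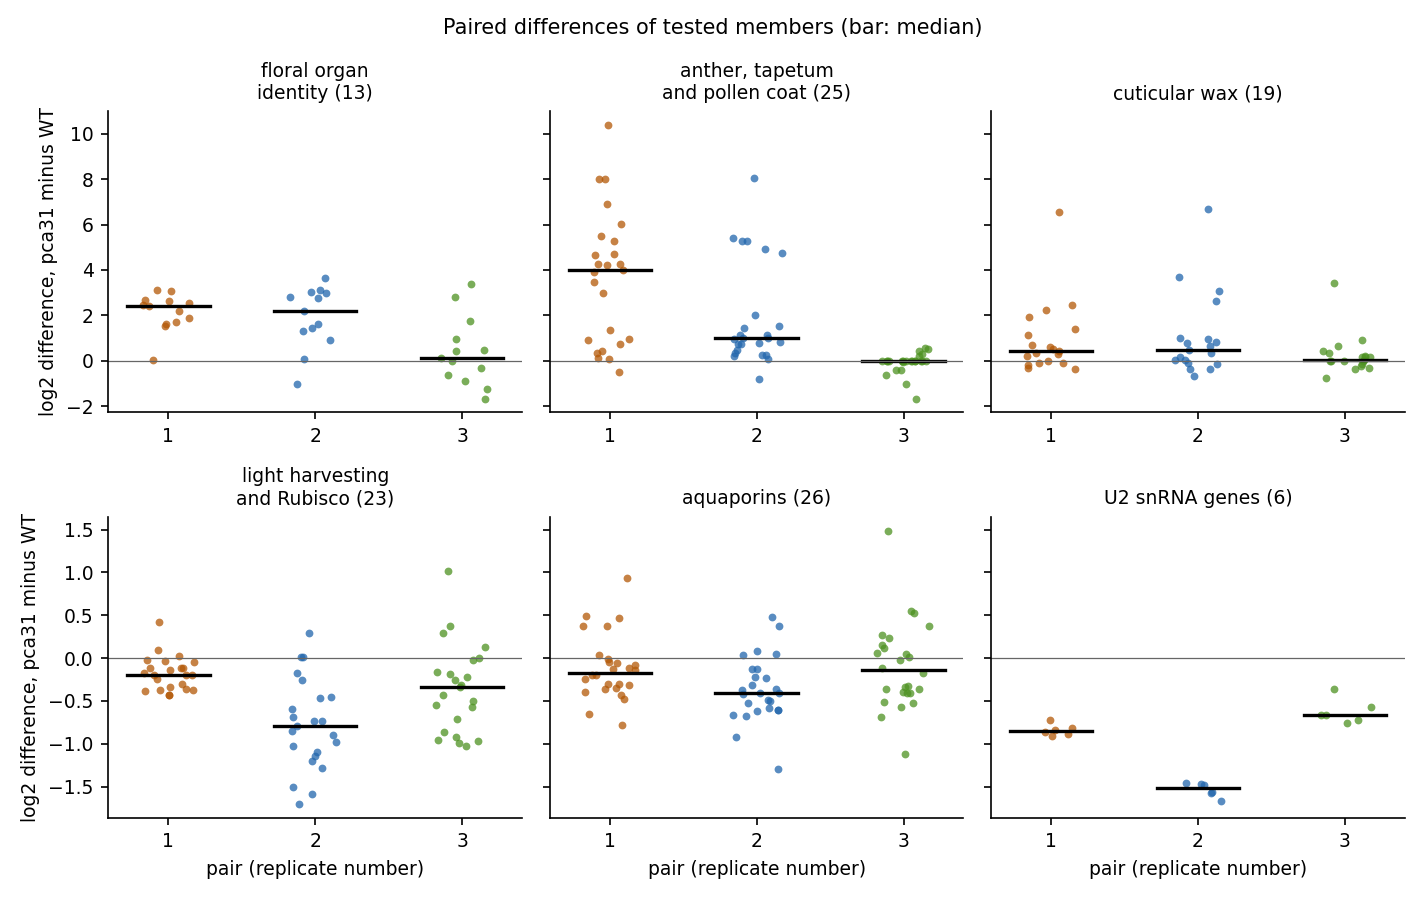
Log2 difference of pca31 minus WT in pairs 1, 2 and 3 (horizontal axis) for each tested member of 6 lists, with a bar at the median. Floral, anther and wax lists are spread upward in pairs 1 and 2 and lie near 0 in pair 3, whereas light harvesting, aquaporin and U2 genes have a median below 0 in every pair.

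The flowering repressors FLC and MAF5 were lower in 3 of 3 pairs and SPL3 and SPL9 higher, without a call by edgeR. FLC, the MADS-box repressor that vernalization silences, had 2.29, 1.39 and 0.598 CPM in pca31, 1.59, 1.095 and 1.24 CPM in atrzf1, and 6.72, 11.1 and 3.15 CPM in WT. Every WT library lay above every pca31 library, and the log2 fold change was -2.30 ± 0.42 (edgeR, adjusted p = 0.130). MAF5, a repressor of the same clade, had 5.22, 1.82 and 0.199 CPM in pca31, against 13.6, 13.3 and 1.77 CPM in WT (-2.38 ± 0.40, edgeR, adjusted p = 0.0821). Its groups overlapped, because library 3 was low in both genotypes.

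SPL3 and SPL9, factors that promote the change to the adult and flowering phase, had log2 fold changes of 0.66 ± 0.18 and 0.76 ± 0.27 and were higher in 3 of 3 pairs. SPL3 overlaps the gene AT2G33815 on the other strand by 1046 bases, and reads of the pair cannot be told apart here because the strand of counting is not given. Of 20 tested flowering-time genes 4 were higher and 4 lower in 3 of 3 pairs, with a median of 0.14. DESeq2 called FLC and MAF5 lower (adjusted p = 1.77e-04 and 1.67e-05).

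**Figure D4:**
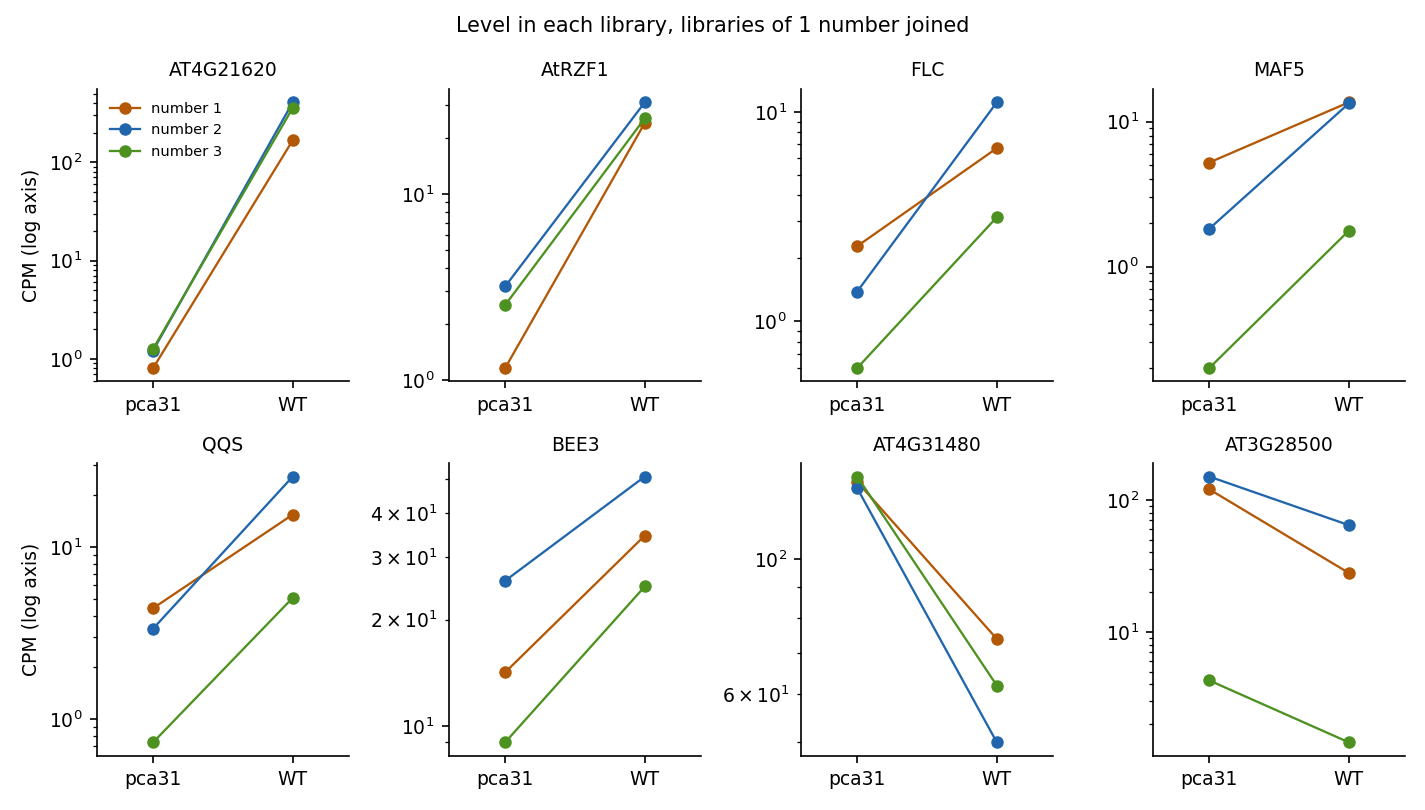
Level in CPM (vertical log axis, its range set for each gene) of 8 genes in pca31 and in WT, with libraries of 1 replicate number joined by a line. AT4G21620, AtRZF1, FLC and QQS are lower and AT4G31480 is higher in pca31 without overlap, and the other 3 genes keep the sign of the difference in every pair.

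Among the genes higher in 3 of 3 pairs, 427 had a log2 fold change of at least 1, and 50 of these averaged at least 5 CPM in the higher genotype. AT4G31480, one of a tandem pair of genes for the coatomer beta subunit of vesicle coats (chromosome 4, 15263016 to 15267891), had 134, 131 and 137 CPM in pca31, 67.8, 40.7 and 69.8 CPM in atrzf1, and 74.0, 49.95 and 62.0 CPM in WT. The pca31 libraries lay above all 6 others and close to each other. The log2 fold change against WT was 1.14 ± 0.17 (edgeR, adjusted p = 0.0522) and that against atrzf1 was 1.22 ± 0.18 (edgeR, adjusted p = 0.177). The second coatomer gene, AT4G31490, starts 554 bases after it and had -0.06. As near copies the 2 genes may exchange reads.

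AT3G28500, a gene for an acidic protein of the ribosomal stalk, had 120, 150 and 4.29 CPM in pca31, 130, 129 and 6.996 CPM in atrzf1, and 27.9, 64.3 and 1.45 CPM in WT (log2 fold change 1.59 ± 0.25 against WT, edgeR, adjusted p = 0.0522). It was low in all libraries of number 3, so the groups overlapped while each pair differed. Of the 13 stalk genes tested, 3 were higher and 5 lower in 3 of 3 pairs, with a median of -0.07. With library totals 6 were higher and 1 lower, with a median of 0.11.

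SWEET10, a sugar exporter of the plasma membrane, had 8.98, 12.8 and 4.89 CPM in pca31, 10.7, 11.8 and 9.55 CPM in atrzf1, and 0.533, 3.32 and 1.49 CPM in WT (log2 fold change 2.4 ± 0.41, edgeR, adjusted p = 0.0871). All pca31 libraries exceeded all WT libraries. ADS4, a fatty acid desaturase, had 13.8, 21.3 and 3.85 CPM in pca31, against 3.09, 4.16 and 2.32 CPM in WT (1.79 ± 0.33, edgeR, adjusted p = 0.142), with a small overlap through library 3. AT5G22430 (2.31), GRP20 (3.26) and AT2G20870 (2.11) were carried by libraries 1 and 2 and were at or near 0 in library 3 of both genotypes.

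MRD1 (chromosome 1, 19963047 to 19964712, minus strand) varied widely within each genotype. It had 99.5, 50.7 and 5.55 CPM in pca31, 0.981, 5.13 and 0.583 CPM in atrzf1, and 1.67, 23.2 and 0.275 CPM in WT (log2 fold change 3.56 ± 0.78, edgeR, adjusted p = 0.222). It overlaps HEI10, a RING protein gene of meiotic crossover formation, by 1446 bases on the other strand, and HEI10 had 2.81 ± 0.63. The groups overlapped for both, since WT library 2 lay above pca31 library 3. With WT library 2 left out, edgeR gave MRD1 a log2 fold change of 5.13 and an adjusted p of 0.0433, and with pca31 library 2 left out 4.82 and 0.0240. These omissions were picked for an adjusted p under 0.05. Over all omissions of a library or number, the log2 fold change of MRD1 ran from 2.03 to 5.38. The adjusted p by edgeR then reached 0.479.

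Smaller differences repeated in every pair. The prefoldin subunit gene AIP3 had 21.9, 18.9 and 24.6 CPM in pca31, against 12.7, 9.91 and 14.5 CPM in WT, with no overlap (log2 fold change 0.83 ± 0.17). AT3G11210 had 1.28, TRM28 1.03 and AT1G04030 0.85, and the overlapping pair AT5G23240 and AT5G23235 had 0.88 and 0.81 over a shared stretch of 1721 bases. None of these was called by edgeR, with adjusted p-values of 0.181 to 0.227.

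Among the genes lower in 3 of 3 pairs, 172 had a log2 fold change of -1 or below, and 40 of these averaged at least 5 CPM in the higher genotype. QQS, a gene found only in Arabidopsis thaliana that bears on the split of carbon and nitrogen between starch and protein, had 4.41, 3.35 and 0.731 CPM in pca31, 2.54, 4.78 and 2.33 CPM in atrzf1, and 15.5, 25.7 and 5.07 CPM in WT. The highest pca31 library lay below the lowest WT library (log2 fold change -2.42 ± 0.37, edgeR, adjusted p = 0.0522). BEE3, a bHLH factor induced by brassinosteroids, had 14.2, 25.8 and 8.97 CPM in pca31, against 34.6, 50.8 and 24.8 CPM in WT (-1.23 ± 0.18, edgeR, adjusted p = 0.0521). Its groups overlapped by 1 library each, and each pair differed by a like amount.

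CYP710A2, a sterol C-22 desaturase, had 43.8, 26.8 and 44.8 CPM in pca31, against 70.3, 60.3 and 108 CPM in WT, with no overlap (log2 fold change -1.03 ± 0.17, edgeR, adjusted p = 0.0799). The expansin-like gene EXLB1 had -1.0 ± 0.19. AT4G04223 had -1.54, AT5G42720 -0.80, and AT2G33051, which overlaps RLP26 by 2671 bases, -0.92. No one of these was called by edgeR, whereas DESeq2 called them all.

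PYK10, the main beta-glucosidase of endoplasmic reticulum bodies, which are stores of defence enzymes in roots and young seedlings, had 65.0, 25.6 and 1652 CPM in pca31, against 152.6, 52.4 and 1847 CPM in WT (log2 fold change -0.82 ± 0.22, edgeR, adjusted p = 0.346). PBP1 (AT3G16420), a jacalin-related lectin that binds PYK10, had 80.3, 40.9 and 551 CPM in pca31, against 196, 138 and 761 CPM in WT (-1.19 ± 0.23, edgeR, adjusted p = 0.176). Neither gene was called by edgeR. As ratios, pairs 1 and 2 differed more than pair 3, and library 3 was far above the others in both genotypes.

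Of 22 tested jacalin-related lectin genes, a list chosen after its values were seen, 7 were lower and 0 higher in 3 of 3 pairs. The other 15 were mixed, and log2 fold changes ran from -1.32 to 1.67, with 13 below 0 and 9 above. The list summed to 1041, 456 and 1657 CPM in pca31, 688, 313 and 1527 CPM in atrzf1, and 1010, 759 and 2587 CPM in WT. The sum in pair 1 was thus slightly higher in pca31 than in WT. JAL22 had 16.1, 6.27 and 89.8 CPM in pca31, against 40.9, 14.1 and 248 CPM in WT (log2 fold change -1.32 ± 0.24, edgeR, adjusted p = 0.120). JAL33 had -1.09 and JAL34 had -0.96, and the ER body gene NAI2 had -0.27. The root markers, a list that includes PYK10, summed lower in pca31 in each pair, as the sums given at the start show. As a ratio the gap was larger in pairs 1 and 2 than in pair 3, while in CPM it was largest in pair 3. Of 21 tested, 4 were lower and 1 higher in 3 of 3 pairs, with a median of -0.03 that was 0.12 with library totals, and the endodermis genes CASP1 and ESB1 had -0.64 and -0.32. ESB1 overlaps AT2G28671 (-0.34) by 1772 bases on the other strand, so its value may include reads of that gene. The part of root content in the values of PYK10 and its lectins was not tested.

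Genes of U2 small nuclear RNA, the spliceosome component that pairs with the branch point of introns, were lower in pca31. The list was chosen after its values were seen. The 6 tested genes U2.2 to U2.7 summed to 84.4, 145 and 53.1 CPM in pca31, to 149, 274 and 55.0 CPM in atrzf1, and to 151, 419 and 83.7 CPM in WT. All 6 were lower in 3 of 3 pairs, with log2 fold changes of -1.06 to -0.97, and the sum in pca31 was below that of its paired WT library each time while the groups overlapped. The median stayed at -0.80 with library totals.

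The U2 genes share 91.3% to 97.9% of 195 bases, so their reads may be exchanged and their values are not independent. Upstream of plant U2 genes stand the upstream sequence element and a TATA box, which set where transcription of these small RNAs starts. The 90 bases before the U2 sequence are shown for 3 genes that had the same difference, in the direction of transcription, with capitals for CCCACATCG, the core of the element, and for TATAAA.

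U2.3 (chr3:21397617-21397706, TAIR10.1, minus strand): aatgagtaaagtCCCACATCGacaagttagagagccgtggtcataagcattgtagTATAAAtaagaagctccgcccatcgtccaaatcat
U2.5 (chr5:2974924-2975013, TAIR10.1, plus strand): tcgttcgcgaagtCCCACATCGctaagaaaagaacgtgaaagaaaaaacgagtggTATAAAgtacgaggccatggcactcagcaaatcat
U2.7 (chr5:24713602-24713691, TAIR10.1, minus strand): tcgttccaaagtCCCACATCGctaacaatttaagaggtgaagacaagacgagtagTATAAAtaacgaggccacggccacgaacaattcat

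In all 6 genes CCCACATCG starts 77 or 78 bases and TATAAA 33 to 35 bases before the U2 sequence. On either strand CCCACATCG was in 0.169% and both motifs in 0.116% of 37897 windows of 90 bases before annotated gene starts. The U2 windows are of another kind, because they were placed before the U2 sequence and not before the annotated start. Those of U2.3 and U2.7 lie inside the annotated genes (21397262 to 21398132 and 24713264 to 24714094). Counts of these genes may thus include bases outside the U2 sequence. U2.3 had 15.2, 26.9 and 10.1 CPM in pca31, against 27.7, 79.5 and 16.7 CPM in WT (log2 fold change -1.05 ± 0.22). U2.5 had 14.9, 26.1 and 9.70 CPM in pca31, against 27.9, 78.2 and 15.5 CPM in WT (-1.06 ± 0.21). U2.7 had -1.03 ± 0.20 and U2.4 had -0.97 ± 0.20. Pair 2 differed most in each of them. AT3G57770, a protein-coding gene that overlaps U2.3 by 591 bases on the other strand, had -1.03.

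Other classes of small structural RNA ran the same way. Of 13 small nuclear RNA genes 11 were lower in 3 of 3 pairs, of 68 small nucleolar RNA genes 33 were lower and 1 higher, and of 18 tRNA genes 7 were lower. Their median log2 fold changes were -0.97, -0.60 and -0.70. These RNAs are mostly without a poly(A) tail, and QuantSeq primes on such tails, so what their counts sample was not tested. By edgeR 11 of the 13 small nuclear RNA genes had an unadjusted p under 0.05 and none was called, while DESeq2 called 5 of the 6 U2 genes.

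With TMM scaling, the lists of photosynthesis had, among the 38 lists, the highest shares of members lower in 3 of 3 pairs. Of 23 genes of light harvesting proteins and Rubisco small subunits, 15 were lower and 0 higher, with a median of -0.38 that was -0.18 with library totals, where 12 were lower and 1 higher, and 13 had an unadjusted p under 0.05 in that direction with TMM. None was called by edgeR, and DESeq2 called 6 lower. The summed level was 134733, 67351 and 45206 CPM in pca31, 143679, 103670 and 55496 CPM in atrzf1, and 154869, 110008 and 59775 CPM in WT. Each pca31 library lay below its paired WT library, and the pca31 and WT sums overlapped.

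The antenna gene LHCB1.3 had 14055, 10786 and 2369 CPM in pca31, against 17794, 19443 and 4615 CPM in WT (log2 fold change -0.72 ± 0.17, edgeR, adjusted p = 0.292). LHCB2.1, LHCB2.2 and LHCB2.3, near copies that may exchange reads, had -0.94, -0.997 and -0.999. LHCB2.1 had 4329, 130 and 920 CPM in pca31, against 5596, 368 and 1743 CPM in WT, so library 2 was low in both genotypes.

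Of 30 genes of the photosystem cores and electron transport, 17 were lower and 2 higher in 3 of 3 pairs. Their median was -0.25, and with library totals it was -0.04, with 6 lower and 4 higher. PSAG, a photosystem I subunit, had -0.54 ± 0.15, PSBX of photosystem II -0.46 ± 0.16, and the plastocyanin gene PETE1 -0.45 ± 0.18. FNR2, a ferredoxin-NADP+ reductase, went the other way with 556, 447 and 341 CPM in pca31, against 406, 210 and 274 CPM in WT (0.63 ± 0.18). Chlorophyll synthesis genes had a median of 0.00 with 4 of 20 lower and 1 higher in 3 of 3 pairs, and 0 lower and 7 higher with library totals.

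Aquaporin genes, which encode water channels, were lower in 3 of 3 pairs for 12 and higher for 1 of 26 tested. Their median was -0.25, and -0.05 with library totals, with 7 lower and 4 higher. PIP2;2 had 55.3, 59.8 and 59.9 CPM in pca31, against 74.7, 86.2 and 86.0 CPM in WT, with no overlap (log2 fold change -0.50 ± 0.15, edgeR, adjusted p = 0.450), although its near copy PIP2;3 may share its reads. PIP1;4 had 369, 360 and 296 CPM in pca31, against 474, 464 and 476 CPM in WT, again with no overlap (-0.47 ± 0.14). PIP2;1 and PIP1;3 had -0.40 and -0.39. By edgeR 7 aquaporin genes were lower at an unadjusted p under 0.05, and neither edgeR nor DESeq2 called one at an adjusted p under 0.05.

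Of 34 tested genes of the dehydration and abscisic acid response, 3 were higher and 4 lower in 3 of 3 pairs, with a median of 0.11. With library totals 7 were higher and 0 lower, with a median of 0.31 against 0.24 over all genes. The balance of signs thus moved with the scaling, as it did over all genes. The homeobox gene ATHB12 had 11.6, 7.60 and 5.52 CPM in pca31, against 9.24, 4.32 and 2.71 CPM in WT (log2 fold change 0.70 ± 0.23), and the phosphatase gene HAB1, a negative regulator of abscisic acid signalling, had 0.54 ± 0.23. The cold- and abscisic acid-induced gene KIN2 had 1810, 2116 and 148 CPM in pca31, against 1820, 3983 and 545 CPM in WT (-0.94 ± 0.27), and RD22 had -0.46. For KIN2 the first pair was nearly equal, and DESeq2 alone called the gene.

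Of 17 RING and U-box ligase genes linked to drought, AtRZF1 was called lower and no other member was called. SDIR1, RGLG1 and DRIP1 were higher in 3 of 3 pairs, with log2 fold changes of 0.30, 0.16 and 0.69.

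No proline gene was called by edgeR or DESeq2, and 1, PRODH1, had an unadjusted p under 0.05. Of 10 tested, 2 were lower and 0 higher in 3 of 3 pairs, and the median was -0.10. With library totals 1 was lower and 2 higher, with a median of 0.10. P5CS1, the rate-limiting synthase, had 242, 109 and 180 CPM in pca31, against 282, 94.0 and 248 CPM in WT (log2 fold change -0.15 ± 0.16), and its sign differed between pairs. P5CS2 had -0.05 ± 0.16 and the reductase P5CR had -0.26 ± 0.18. PRODH1, the proline dehydrogenase that starts breakdown, had 16.5, 30.1 and 21.7 CPM in pca31, 39.97, 47.0 and 27.7 CPM in atrzf1, and 19.4, 44.3 and 34.3 CPM in WT (-0.50 ± 0.22, edgeR, adjusted p = 0.581). It was lower in 3 of 3 pairs, and the groups overlapped. AT5G38710, the second dehydrogenase gene, had 0.04, P5CDH 0.02, DELTA-OAT -0.02, and the transporters PROT1, PROT2 and PROT3 had -0.18, 0.08 and -0.20.

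The rhamnogalacturonan lyase family was weakly expressed. Its 7 genes summed to 12.6, 12.4 and 15.2 CPM in pca31, 13.9, 9.7 and 18.6 CPM in atrzf1, and 15.6, 10.6 and 20.7 CPM in WT, and 4 were tested. AT1G09910 made up most of the sum, with 10.7, 11.04 and 13.5 CPM in pca31, against 13.9, 9.36 and 19.1 CPM in WT (log2 fold change -0.21 ± 0.20), and its sign differed between pairs. AT1G09890, AT2G22620 and AT4G24430 stayed at or below 0.965 CPM in both genotypes, with log2 fold changes of 0.16 ± 1.02, 0.21 ± 0.56 and -0.39 ± 1.02. AT1G09880, AT4G37950 and AT4G38030 had too few counts to be tested. No member was called or had the same sign in 3 of 3 pairs. The files and the annotation do not tie the name RGL1 to one of these loci, and at this depth a lesion that leaves the transcript level as it is would not be seen.

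Of 16 homogalacturonan synthesis genes 5 were higher and 0 lower in 3 of 3 pairs, with a median of 0.17 against 0.04 over all genes. With library totals 11 were higher and the median was 0.37, against 0.24 over all genes. The galacturonosyltransferase genes GAUT13, GAUT7 and GAUT8 had log2 fold changes of 0.77 ± 0.30, 0.40 ± 0.19 and 0.26 ± 0.16, and the methyltransferase gene CGR3 had 0.38. Of 13 genes of rhamnogalacturonan-I and rhamnose synthesis, 2 were higher (15.4%) and 1 lower (7.69%), against 15.7% and 14.3% over all genes. The UDP-rhamnose transporter URGT2 (0.39) and AT5G15740 (0.42) were higher, and URGT2 differed by only 0.002 in pair 3. RHM1, a rhamnose synthase, was lower (-0.09, and 0.12 with library totals). Pectin modification genes had 2 of 15 lower and a median of -0.02, which with library totals was 0.18 with 0 lower and 3 higher, and cellulose synthesis genes had none of 13 with the same sign in 3 of 3 pairs.

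Of 28 expansin and xyloglucan endotransglucosylase genes 2 were higher and 4 lower in 3 of 3 pairs, and XTH3 was called. XTH15 and XTH19 had log2 fold changes of 0.83 and 0.84, whereas XTH7 had -0.41 and EXPA1 had -0.22. The median of this list was -0.05, or 0.17 with library totals, where 7 were higher and 2 lower.

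Rapid regulators of touch, wounding and cold were higher in 3 of 3 pairs for 7 and lower for 0 of 21, with a median of 0.49, and 11 were higher with library totals. The median paired difference was 0.26, -0.09 and 1.07, so pair 3 carried most of it. WRKY40 had 18.03, 8.67 and 12.4 CPM in pca31, 11.8, 9.68 and 11.04 CPM in atrzf1, and 13.6, 4.45 and 5.43 CPM in WT (log2 fold change 0.81 ± 0.25, edgeR, adjusted p = 0.456). Its groups overlapped. WRKY53, ERF5 and ERF104 had 0.58, 0.71 and 0.49. Genes of this kind respond within minutes to handling, and the labels do not describe the harvest.

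Of 18 salicylic acid defence genes 6 were lower and 1 higher in 3 of 3 pairs, with a median of -0.11. With library totals 3 were lower and 4 higher, with a median of 0.10 against 0.24 over all genes. PR5 had 2.96, 8.79 and 1.99 CPM in pca31, against 6.47, 34.2 and 2.63 CPM in WT (log2 fold change -1.31 ± 0.41), and PR2 had -1.07 ± 0.44, both with the largest gap in pair 2. WRKY70, a factor of the same pathway, had 0.31. Of 30 jasmonate and ethylene defence genes 1 was lower in 3 of 3 pairs, the factor ORA59 with -1.13, and the median paired difference changed sign, with 0.80, -1.11 and -0.43.

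Of 19 antioxidant genes 7 were lower and 3 higher in 3 of 3 pairs, with a median of -0.18. With library totals 2 were lower and 6 higher, with a median of 0.03 against 0.24 over all genes. The median of this list thus lay below that of all genes with both scalings. The catalase gene CAT3 had 5916, 3394 and 3431 CPM in pca31, against 7639, 8810 and 4981 CPM in WT (log2 fold change -0.77 ± 0.21), with an overlap through pca31 library 1. The iron superoxide dismutase gene FSD1 had -0.53 and GSTU19 had -0.43, whereas GSTU1 had 1.12. Of 18 flavonoid and anthocyanin genes 3 were higher (16.7%) and 1 lower (5.56%) in 3 of 3 pairs, against 15.7% and 14.3% over all genes. They were MYB111 (0.97), FLS1 (0.95) and UGT78D1 (0.62) on the higher side and LDOX (-1.09) on the lower.

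In the remaining lists, counts of members higher and lower in 3 of 3 pairs were 1 and 4 of 25 heat shock genes, 1 and 0 of 10 endoplasmic reticulum chaperones, 2 and 0 of 11 hypoxia genes, and 4 and 1 of 19 iron genes. They were 2 and 3 of 17 phosphate starvation genes, 0 and 4 of 18 nitrogen genes, 4 and 4 of 21 auxin genes, and 5 and 1 of 20 senescence genes. They were 0 and 1 of 25 glucosinolate genes, 0 and 3 of 10 morning clock genes, 3 and 1 of 12 evening clock genes, and 1 and 2 of 10 cell division genes. With library totals these counts were 5 and 3 heat shock genes, 3 and 2 phosphate starvation genes, and 3 and 0 nitrogen genes. They were then 2 and 0 glucosinolate genes, 2 and 1 cell division genes, and 2 and 2 morning clock genes. Over all genes tested, 6596 were higher and 1036 lower with that scaling, so these lists moved as genes did in general. Of the 12 seed storage genes 2 could be tested and neither kept its sign. Within these lists HSP70 had a log2 fold change of -0.63, the nicotianamine synthase NAS1 -0.73, GDPD1 of phosphate starvation -0.60, PRR3 of the clock 0.74, CYCB1;1 0.66 and CDKB2;1 -0.53.

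Of 11 tested reference genes, 3 were lower and 0 higher in 3 of 3 pairs, with a median of -0.15, and none was called by edgeR. With library totals 2 were lower and 2 higher, with a median of 0.05. UBQ10 had 11561, 11331 and 12520 CPM in pca31, against 14803, 22098 and 15571 CPM in WT, with no overlap (log2 fold change -0.55 ± 0.17), PTB1 had -0.50 and GAPC1 had -0.46.

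**Figure D5:**
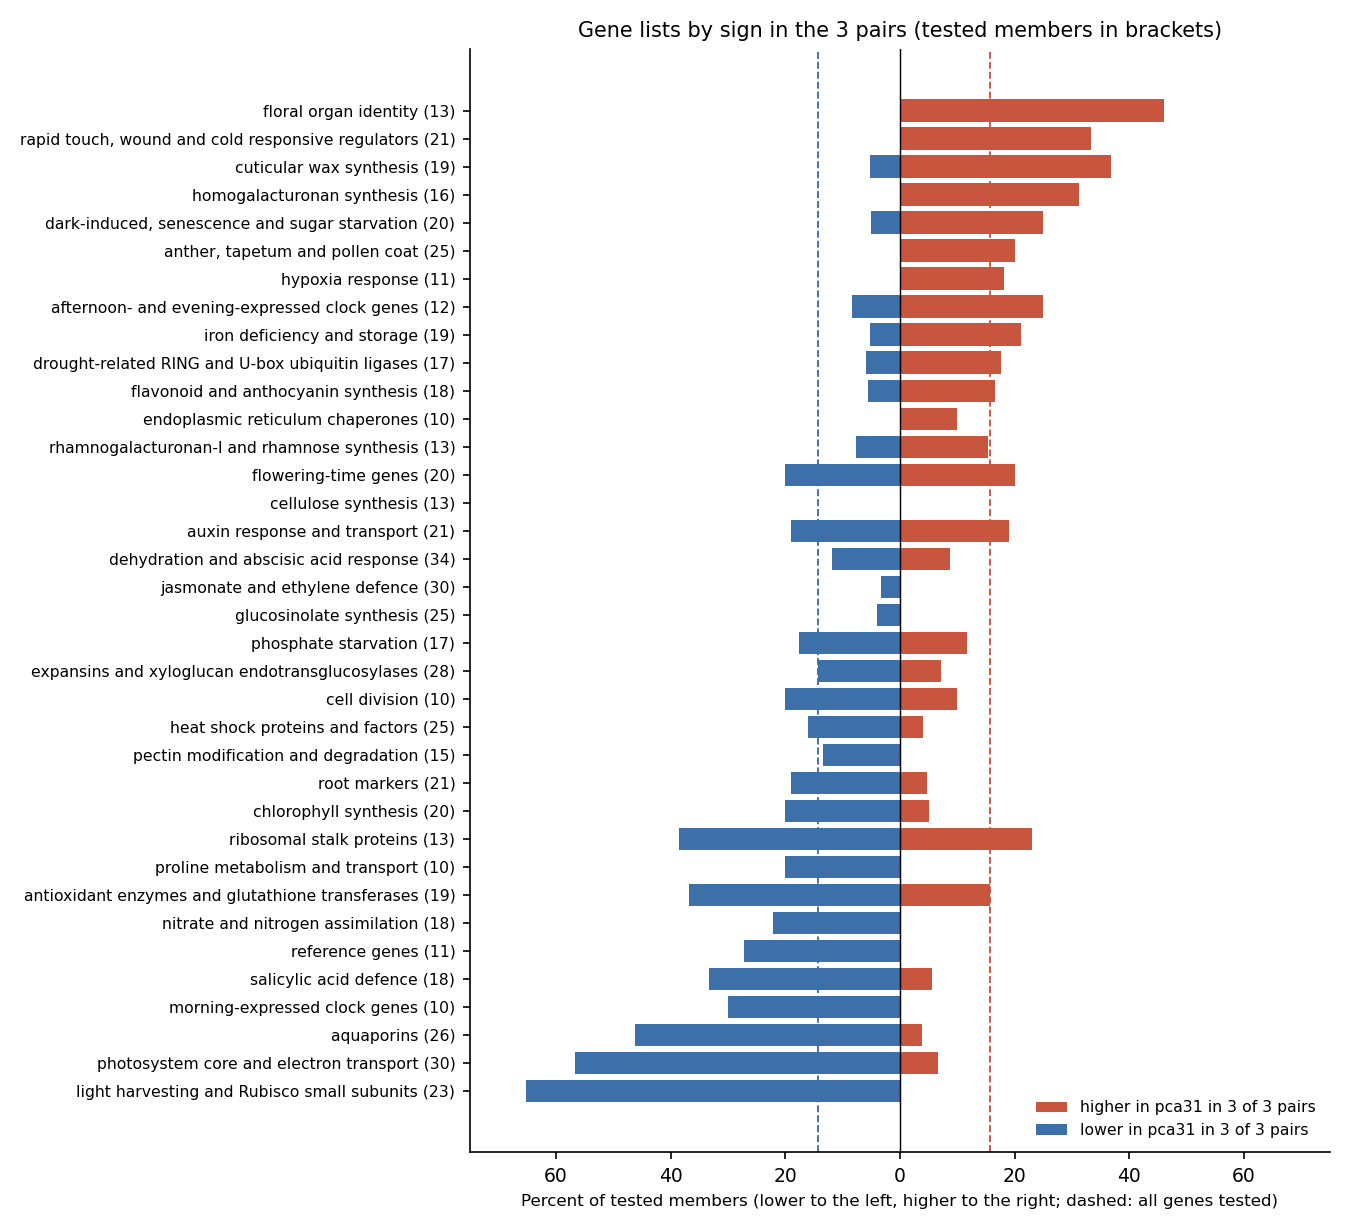
Percent of tested members higher (red, to the right) and lower (blue, to the left) in pca31 in 3 of 3 pairs for each list with at least 10 tested members, with the number tested in brackets. Dashed lines mark all genes tested, 15.7% higher and 14.3% lower. Floral organ identity, wax and touch lists reach furthest on the higher side, and light harvesting, photosystem and aquaporin lists on the lower side.

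A second count model gave longer lists. DESeq2 with the same block called 46 genes higher (0.223%) and 70 lower (0.339%). All 70 of the lower genes were lower in 3 of 3 pairs and averaged at least 5 CPM in the higher genotype, and they include AT4G21620 and AtRZF1. Of the 46 higher genes, 30 were higher in 3 of 3 pairs and 11 had no count in any WT library. The genes called lower by DESeq2 include LHCB1.3, LHCB2.1, LHCB2.2, LHCB2.3, PSAG, PYK10, PBP1, JAL22, JAL33, JAL34 and CAT3.

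Single libraries also decided calls of genes that edgeR did not call with all 9. The omissions given here were picked because they brought the adjusted p under 0.05, and other omissions raised it. The highest adjusted p by edgeR over the omissions was 0.705 for ADS4, 0.798 for GRP20, 0.809 for AT4G04223 and 0.638 for PBP1. It was 0.575 for QQS, 0.658 for MAF5, 0.618 for JAL22 and 0.454 for CYP710A2. For AT5G22430 it was 0.394, for AT4G31480 0.283, for AT3G28500 0.214 and for BEE3 0.181. For SEP3 and PI it was higher than for any of these genes, and their lowest log2 fold changes were 1.27 and 1.66. Without WT library 3 the adjusted p by edgeR was 0.0241 for ADS4, 0.00841 for SEP3, 0.00960 for PI, 0.00498 for GRP20, 0.0355 for AT4G04223, 0.0300 for PBP1 and 0.0382 for QQS. Without pca31 library 1 it was 0.0139 for QQS, 0.0346 for AT4G31480 and 0.0346 for CYP710A2. It was 0.0283 for BEE3 without pca31 library 2, 0.0206 for AT3G28500 without WT library 2 and 0.0260 for MAF5 without WT library 1. With both libraries of number 2 left out JAL22 had 0.0444, and with those of number 3 left out AT5G22430 had 0.0488. The sign of these genes was that of the full fit each time.

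The sign rule has an edge at a difference of 0. Just inside it, AT4G39190 had paired differences of 0.00, 1.46 and 1.90, and just outside it CYP707A3, an abscisic acid hydroxylase, had -0.00, 1.75 and 1.7. With every pair required to differ by at least 0.5 on the log2 scale, 315 genes were higher and 172 lower.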

How the data were processed

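Per the labels' protocols, TRIzol was used for extraction, and each Lexogen QuantSeq 3' library was made from 500 ng of RNA. Per the submitters' processing notes, Bowtie2, bedtools and the TAIR10 genome were used. The sources used here give no versions, annotation or strand setting. Counts of genes that overlap another on the other strand may thus include its reads. Beside those named above, AT1G04030, JAL34, GDPD1, P5CDH and LHCB2.3 have such overlaps. The authors deposited raw counts per gene (whole numbers, 33323 identifiers), of which 32835 matched a locus of the RefSeq annotation TAIR10.1, the source of names, coordinates and sequences. No column belonged to another series.

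Counts were fitted in R 4.3.3 with edgeR 4.0.16 (glmQLFit and glmQLFTest) on all 9 libraries, with TMM factors of 0.819 to 1.25 in pca31 and WT and the design of replicate number plus genotype, which left 4 residual degrees of freedom. Genes were kept by filterByExpr (minimum count 10, minimum total 15), which left 20672, with a Benjamini-Hochberg adjusted p under 0.05 as the call. Paired differences are log2 CPM with a prior count of 2. A ± beside a log2 fold change is its standard error from the fit. The replicate numbers come from the titles, and they pair the libraries: deviations from genotype means correlated over genes by 0.585 to 0.849 within a number and by -0.736 to 0.271 between numbers. No 2 libraries of a genotype agreed within counting noise (smallest chi-square per degree of freedom 181).

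A count of 0 allows up to 3 counts, which is 0.0867 to 0.126 CPM. Reads are not independent molecules, so this floor covers counting error only. The alternatives were limma-voom (limma 3.58.1), DESeq2 1.42.0, other scalings and filters, no block, 6 libraries, and each library or number left out.

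Members and lists were chosen with earlier results of these data known. Named genes are AtRZF1, the lyase and proline families, up to 15 genes per direction that were called or had the smallest unadjusted p among those of the same sign in 3 of 3 pairs with at least 5 CPM, and up to 4 genes of each of 38 lists. The 7 genes called higher, the U2, lectin and GRP lists, overlapping and neighbouring genes, and other members named beside their lists were added after their values were seen. The script was tested on simulated data.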

Additional observations from a re-analysis of the deposited data

How the results depend on the processing

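The fold changes of AT4G21620 and AtRZF1 kept their sign under all 17 alternatives, and AtRZF1 ran from -3.89 to -3.31 on the log2 scale with adjusted p-values of 2.58e-32 to 0.339, the last without the replicate block (-3.55). Counts of genes called higher and lower, 7 and 2 by edgeR, were 46 and 70 with DESeq2, 39 and 26 with no filter, 0 and 1 without the replicate block, 2 and 3 with 6 libraries, and 9 and 7 with limma-voom. Without the block, 137 higher and 53 lower genes had an unadjusted p under 0.05. The cause of these changes was not tested. Leaving out a library or number gave 3 to 21 called higher and 2 to 14 called lower. Without pca31 library 1 the counts were 17 and 10, without pca31 library 2 they were 3 and 3, without WT library 2 14 and 2, and without WT library 3 16 and 6. Genes of the same sign in every remaining pair, an alternative chosen after seeing the data, numbered 5270 higher and 4856 lower without number 1, 5515 and 5198 without number 2, 6377 and 5617 without number 3, 6596 and 1036 with library totals, and 315 and 172 with each pair at 0.5 or more.

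Over 130 named genes and up to 17 alternatives each, 42 values changed sign, all in genes that were not called. With library totals these were AT1G09910 (0.0056), RHM1 (0.12), PROT3 (0.0028), P5CS1 (0.055), PROT1 (0.036), P5CS2 (0.15) and DELTA-OAT (0.18). DELTA-OAT had 0.0064 with the 5 CPM filter, 0.020 with limma-voom and 0.059 without the block, AT1G09890 had -0.21 without the block, and P5CDH had -0.011 with DESeq2 size factors, -0.011 with DESeq2 and -0.0020 with no filter. Over the libraries or numbers left out, values ran from -0.50 to 1.39 for AT1G09890, -0.036 to 0.45 for AT2G22620, -1.12 to 0.16 for AT4G24430, -0.52 to 0.068 for PROT3, -0.19 to 0.019 for P5CS2, -0.12 to 0.27 for PROT2, -0.14 to 0.15 for AT5G38710, -0.19 to 0.089 for DELTA-OAT and -0.13 to 0.16 for P5CDH. Depth limits the lyase and seed storage genes, of which 4 of 7 and 2 of 12 could be tested.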
